A study of Mus musculus with 6 samples.

Results

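The genes described here encode the vacuolar ATPase with its accessory proteins, the cathepsins, and the LAMP membrane proteins of the lysosome. Members were taken by name among the protein-coding rows of the deposited table, and the set was chosen with earlier results of these data known. The names were those beginning with Atp6v0 or Atp6v1, Atp6ap1, Atp6ap2, Tcirg1, Cts followed by a letter, and the 3 Lamp genes. The members number 41 of 28154 genes. They comprise 24 V-ATPase genes (10 of the V0 sector, 12 of the V1 sector and 2 accessory subunits), 14 cathepsins (10 cysteine, 2 aspartic and 2 serine proteases) and 3 LAMP genes. A further matching name, Atp6v0c-ps2, belongs to a processed pseudogene and is no member. RNA was sequenced from 4T1, an established mouse mammary carcinoma line, in 3 libraries of cells given corticosterone, the main glucocorticoid of rodents, and 3 libraries of control cells. Both groups are the same line, with no other allele or agent named. No source used here states the dose, the exposure time, what the controls received, or whether replicates were separate cultures, so every p-value below covers the spread between these libraries only, which may be technical.

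The V-ATPase is a rotary proton pump. Its cytosolic V1 sector hydrolyses ATP, and its membrane-embedded V0 sector carries protons into lysosomes, endosomes and secretory vesicles, or out of the cell where the pump sits in the plasma membrane. The acid it makes activates the cathepsins, proteases that are delivered to the lysosome as inactive precursors, while the heavily glycosylated LAMP proteins line the lysosomal membrane. Many of these genes are known targets of TFEB, a transcription factor that binds CACGTG-type elements close to the start sites of lysosomal genes. In tumours, cathepsins that leave the cell degrade matrix, and the V-ATPase helps to acidify the surroundings.

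Library totals lay between 62.2 and 66.2 M counts. On the first principal component of log2 CPM (counts scaled to 1 M per library after TMM normalisation) the corticosterone libraries scored 29.6, 9.17 and 38.5 and the controls between -33.8 and -21.5, so corticosterone replicate 2 stood closest to the controls. Of 6 glucocorticoid target genes used to check the labels, 5 rose in treated cells, by 0.77 (Fkbp5) to 1.75 (Per1) on the log2 scale, and the counts of Zbtb16 were too low for the test. All 8 epithelial markers in the table were at 1 FPKM (fragments per kilobase, corrected for library depth) or more, and their summed level was 1455 to 1722 FPKM with corticosterone and 1569 to 1636 FPKM in controls. None of 8 lymphocyte markers reached 1 FPKM. Of 11 macrophage markers 5 did, and of 6 osteoclast markers 2 did, Acp5 and Nfatc1.

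RefSeq start sites were on hand for 31 of the 41 members. Ctsw, a member called lower below, was not among these 31, so the motif counts do not cover it. The letters CACGTG occurred within 250 bases before to 50 bases after a start site in 9 of these 31 (29.0%), against 8.09% of 27025 mouse genes in the same table. The longer element, CACGTG with GT before it or AC after it, was present in 5 members (16.1%) and in 2.55% of all genes, and the full form with both flanks was in 0 members and 0.37% of all genes. A palindromic glucocorticoid response element (AGAACA, NNN and TGTTCT in a row) was in 0 members, and in 0.01% of all genes. With 3 matches among all 27025 genes, the 0 among 31 members is uninformative. All of these motifs read the same on both strands, and each longer element contains the shorter one. The windows below (RefSeq, GRCm38.p6, 5′ to 3′ on the gene's strand, CACGTG in capitals) belong to the V0 member with the lowest adjusted p, which has no such element, and to 3 members discussed below that have 1 to 4 of them.

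Tcirg1: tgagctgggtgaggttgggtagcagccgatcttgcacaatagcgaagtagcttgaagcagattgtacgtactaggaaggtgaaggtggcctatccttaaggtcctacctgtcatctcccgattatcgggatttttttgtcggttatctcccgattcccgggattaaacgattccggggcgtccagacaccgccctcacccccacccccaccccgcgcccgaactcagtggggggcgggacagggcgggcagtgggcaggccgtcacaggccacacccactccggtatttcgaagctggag
Lamp1: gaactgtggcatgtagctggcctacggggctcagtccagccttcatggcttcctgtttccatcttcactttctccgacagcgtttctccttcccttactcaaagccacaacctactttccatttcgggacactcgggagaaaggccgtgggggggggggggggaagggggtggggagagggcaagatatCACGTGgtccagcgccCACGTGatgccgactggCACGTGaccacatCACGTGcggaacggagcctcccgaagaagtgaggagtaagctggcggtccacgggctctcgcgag
Ctsa: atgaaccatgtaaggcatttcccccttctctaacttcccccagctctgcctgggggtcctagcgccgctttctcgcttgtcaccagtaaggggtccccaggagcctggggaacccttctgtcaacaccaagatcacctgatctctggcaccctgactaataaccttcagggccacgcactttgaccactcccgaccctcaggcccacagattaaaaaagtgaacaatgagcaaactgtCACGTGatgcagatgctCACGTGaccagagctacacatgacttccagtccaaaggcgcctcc
Atp6v0d1: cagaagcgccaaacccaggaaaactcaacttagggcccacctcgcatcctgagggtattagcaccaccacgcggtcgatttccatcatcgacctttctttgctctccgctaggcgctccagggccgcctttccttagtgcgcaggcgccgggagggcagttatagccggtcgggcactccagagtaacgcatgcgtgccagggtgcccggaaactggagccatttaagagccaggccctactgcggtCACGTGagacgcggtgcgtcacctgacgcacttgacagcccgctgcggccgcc

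The Tcirg1 window lies at chr19:3907084-3907383 on the minus strand, and the other Tcirg1 start sites in the table also lack the element. The Lamp1 window (chr8:13158911-13159210, plus strand) holds 4 copies, with their first bases at positions -61, -45, -28 and -15 from the start site. The Ctsa window (chr2:164833523-164833822, plus strand) holds 2, at positions -12 and 6, and the window of the other Ctsa start site in the table holds 0. The Atp6v0d1 window (chr8:105566015-105566314, minus strand) holds 1, at position -3. A match of letters is a description of the window and no evidence of binding, and a missing match is no evidence against it.

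Most of the machinery was expressed in 4T1 cells, as 31 of the 41 members had a mean of at least 1 FPKM and 24 had at least 10. The most abundant transcripts per length were Ctsd, an aspartic protease of the lysosome (mean 242 FPKM over the 6 libraries), Lamp1 (232 FPKM) and Ctsl, a cysteine protease (219 FPKM). The per-library ranges of these 3 overlapped, at 228 to 259 FPKM for Ctsd, 218 to 246 FPKM for Lamp1 and 211 to 236 FPKM for Ctsl. Ctsz (105 FPKM), the V1 subunits Atp6v1g1 (91.3 FPKM) and Atp6v1f (63.1 FPKM), and Ctsb (69.3 FPKM) followed. Together the members took 0.583, 0.602 and 0.590% of all counts with corticosterone and 0.596, 0.611 and 0.601% in controls.

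**Figure D1:**
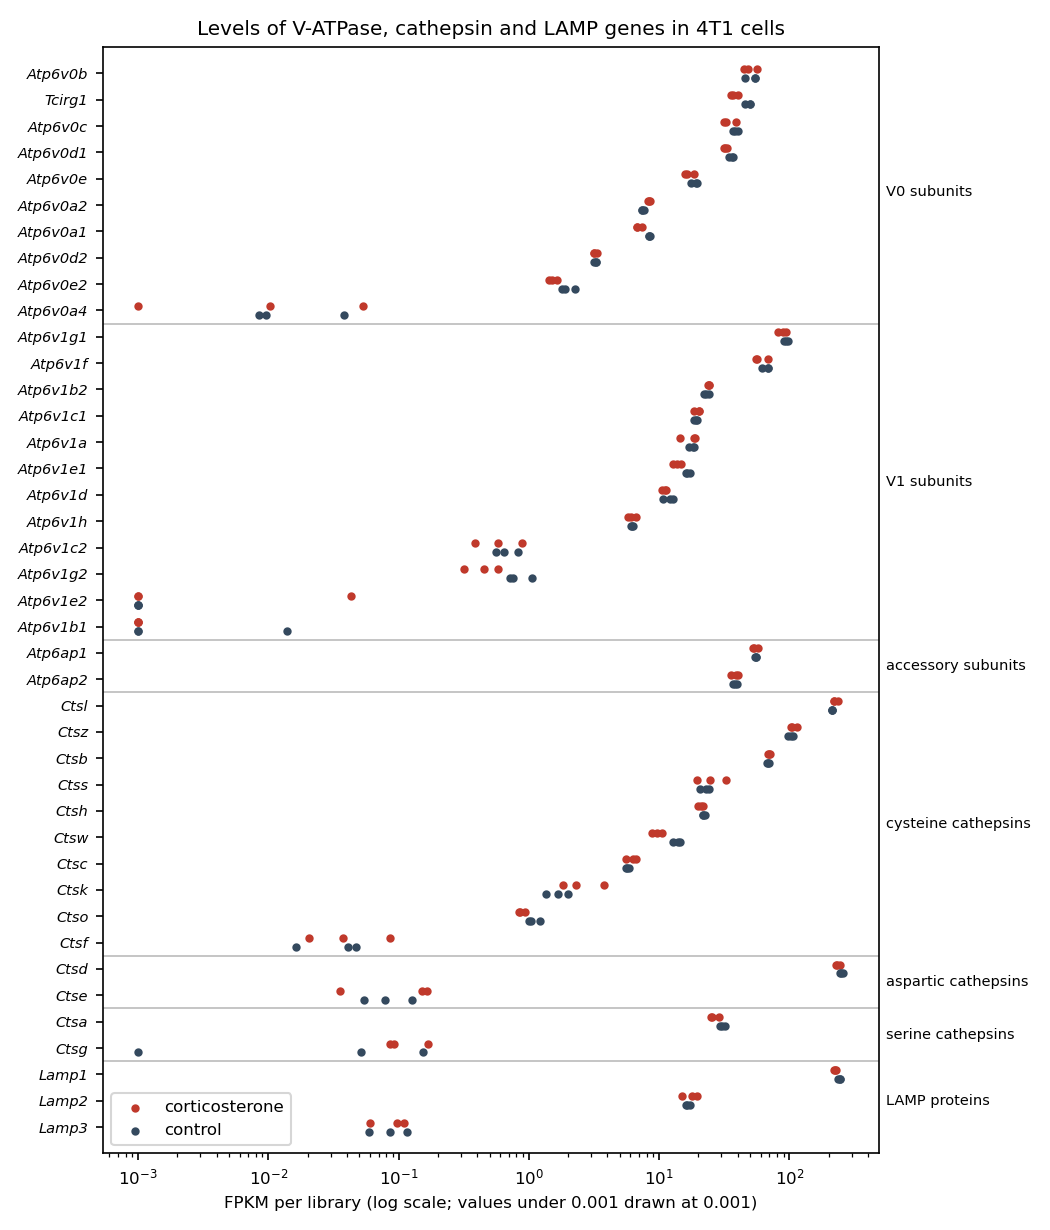
FPKM (log scale) of every member in each library, corticosterone above control in each row, grouped by role and ordered by mean level. Ctsd, Lamp1 and Ctsl lie above 200 FPKM in every library, and Atp6v0a4, Atp6v1e2 and Atp6v1b1 stay below 0.1 FPKM.

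Where a subunit has several paralogous genes, most of the level came from 1 of them. Of the genes for the B, E and G subunits of V1, Atp6v1b2, Atp6v1e1 and Atp6v1g1 made up at least 98.9% of the summed FPKM in every library. Atp6v1c1 made up 95.5 to 98.1% of the C subunit, and in V0 Atp6v0d1 made up 90.5 to 91.8% of subunit d and Atp6v0e 89.5 to 92.0% of subunit e. Subunit a, the part of V0 that sets where in the cell the pump goes, drew on 3 genes. Tcirg1, which encodes the a3 isoform known from osteoclasts and secretory lysosomes, led with 42.8 FPKM, ahead of Atp6v0a2 (7.93 FPKM, a Golgi and endosomal isoform) and Atp6v0a1 (7.68 FPKM, abundant in neurons). The ranges of these last 2 genes overlapped.

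In the fit over all genes 37 of the 41 members were tested, and 4 had too few counts. Atp6v0a4, the kidney isoform of subunit a, had counts of 20, 4 and 0 with corticosterone and of 4, 4 and 14 in controls. The testis isoform Atp6v1e2 had 4 counts in corticosterone replicate 1 and 0 elsewhere, and Atp6v1b1, the kidney isoform of subunit B, had 5 in control replicate 2 and 0 elsewhere. Ctsg, a granule protease of neutrophils, had 7, 14 and 7 counts with corticosterone and 12, 0 and 4 in controls. A count of 0 allows up to 3 counts, or 0.0453 to 0.0483 CPM in these libraries, counting error only.

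Few of these genes passed the test of corticosterone against control. Of the 37 tested members 2 fell, Tcirg1 and Ctsw, and 0 rose, at a Benjamini-Hochberg adjusted p under 0.05 (edgeR quasi-likelihood test, adjusted over all 17283 tested genes). Among all tested genes 1.46% fell and 1.35% rose, 2.82% in either direction. At an unadjusted p under 0.05 2 members were higher (Atp6v0a2 and Ctsk) and 10 lower, against 8.23% and 8.80% of all tested genes. DESeq2 and limma also called 0 members higher (3.64% and 1.82% of all genes each tested). By limma on log2(FPKM + 1) Tcirg1 and Ctsw were the members called lower, against 2.43% of all genes. The CPM of all 3 corticosterone libraries lay below that of all 3 controls for 9 of the 37 members and above it for 2, against 11.6% and 10.6% of all tested genes. The median log2 fold change was -0.059 over the tested members, with 24 below 0, and 9.6e-05 over all 17283 tested genes, of which 8640 were below 0. Within the set the 21 tested V-ATPase genes had a median of -0.13 with 18 below 0, and the 13 tested cathepsins had a median of 0.067 with 5 below 0. Because the set was chosen with earlier results of these data known, no test was made over it. In bulk RNA, fewer expressing cells and less RNA per cell cannot be told apart.

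**Figure D2:**
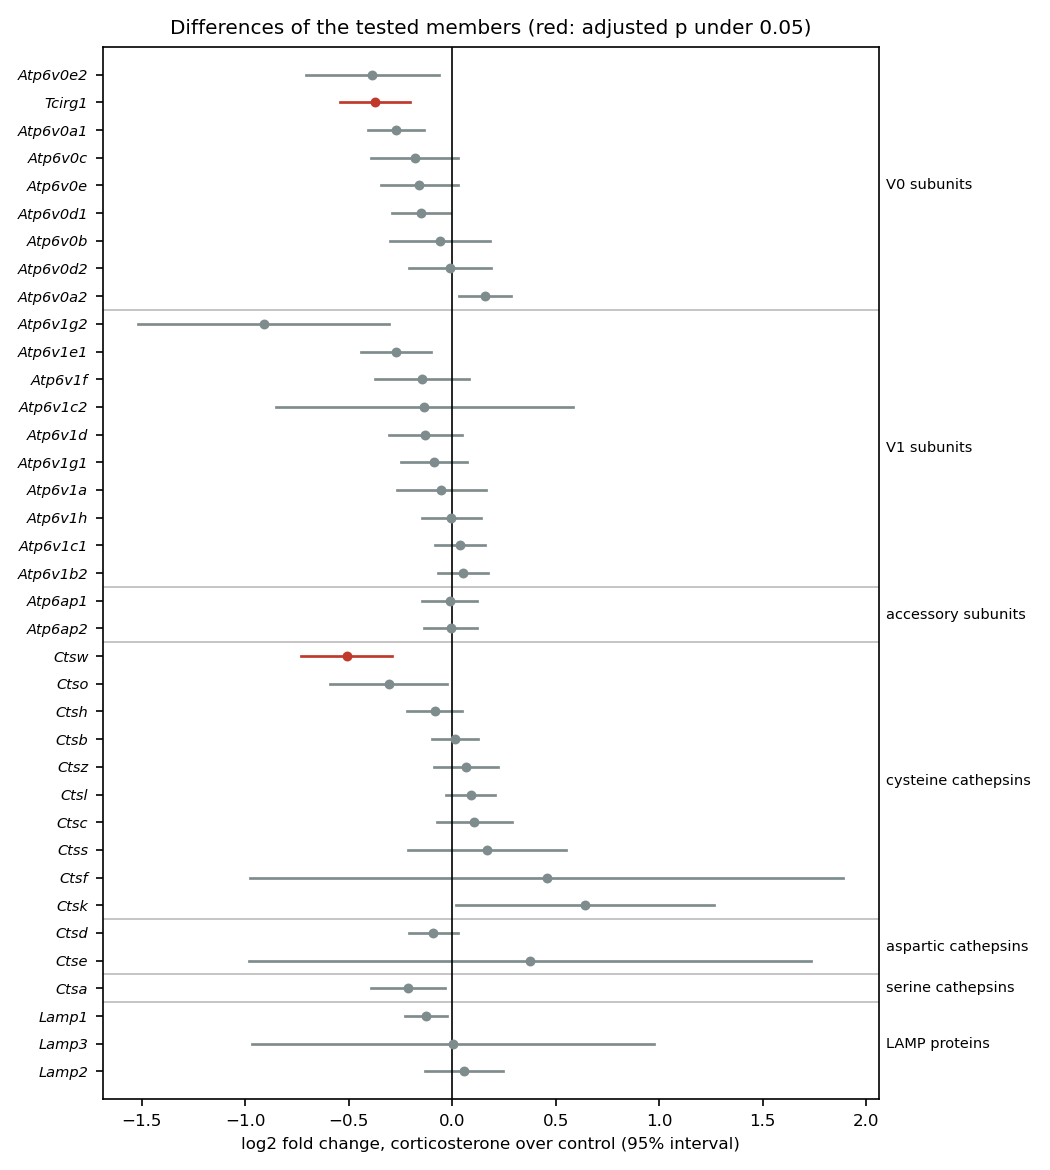
Log2 fold change of corticosterone over control for the 37 tested members, with 95% intervals from the edgeR fit, grouped by role. Tcirg1 and Ctsw, in red, have an adjusted p under 0.05, and 18 of the 21 V-ATPase genes lie left of 0.

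Tcirg1 (ENSMUSG00000001750, chromosome 19, 3896050 to 3907112, minus strand, GRCm38) had 188.2, 212.5 and 181.5 CPM in corticosterone libraries 1 to 3, against 235.2, 258.2 and 261.6 CPM in control libraries 1 to 3. Every treated library was below every control, and the highest treated value came from replicate 2. Tcirg1 averaged 194 ± 16.3 CPM with corticosterone and 252 ± 14.4 CPM in controls (SD, n = 3 each). Its level was thus 0.771 times the control level, a log2 fold change of -0.375 (SE 0.074, 95% interval -0.54 to -0.21, edgeR with Benjamini-Hochberg adjusted p = 0.0365). The call was lost in most fits that left out a library. Without control replicate 1, 2 or 3 the edgeR adjusted p was 0.0755, 0.203 and 0.164, and without corticosterone replicate 1 or 3 it was 0.187 and 0.113. In these fits edgeR also called fewer genes of the whole table lower, 28 to 109 against 253 with all libraries. Without corticosterone replicate 2 the edgeR adjusted p was 0.00115 and the log2 fold change -0.45.

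The other a-subunit genes did not all follow Tcirg1. Atp6v0a1 had 53.9, 51.2 and 49.6 CPM with corticosterone and 61.5, 61.7 and 63.7 CPM in controls, again with no overlap, a log2 fold change of -0.27 (SE 0.059) that just missed the threshold (edgeR, Benjamini-Hochberg adjusted p = 0.0518) and passed it with DESeq2 (adjusted p = 0.00144). Atp6v0a2 lay the other way, with 63.2, 63.4 and 64.1 CPM in corticosterone libraries and 55.55, 56.35 and 58.9 CPM in controls, again without overlap. Its log2 fold change was 0.16 (SE 0.054), which did not pass (edgeR, Benjamini-Hochberg adjusted p = 0.187). Part of its exons, 663 bases, is shared with an antisense gene, and the sources used here do not say whether the counts used the strand. As a share of the FPKM of all subunit a genes, Tcirg1 made up 69.8, 72.8 and 69.8% with corticosterone and 74.3, 75.9 and 75.4% in controls. Atp6v0a2 made up 16.05, 14.9 and 16.9% with corticosterone and 12.01, 11.3 and 11.6% in controls. Neither share overlapped between the groups, whereas that of Atp6v0a1 did (12.3 to 14.04% with corticosterone, 12.7 to 13.6% in controls).

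In the rest of V0 no gene passed the test. Atp6v0d1, the main gene of subunit d, which couples the rotor to V1, had 64.0, 68.35 and 63.2 CPM with corticosterone and 69.0, 73.6 and 74.8 CPM in controls, a log2 fold change of -0.15 (SE 0.061, edgeR with Benjamini-Hochberg adjusted p = 0.257). Atp6v0e2, the lesser gene of subunit e, had 3.82, 4.49 and 4.01 CPM with corticosterone and 5.07, 4.87 and 6.16 CPM in controls, a log2 fold change of -0.39 (SE 0.14, edgeR with Benjamini-Hochberg adjusted p = 0.217). Both had no overlap between the groups. The proteolipids of the rotor ring, Atp6v0b and Atp6v0c, did overlap. Atp6v0b, the most abundant V0 transcript per length (FPKM), had 110.5, 131.8 and 101.8 CPM with corticosterone and 106.2, 125.5 and 126.7 CPM in controls. Atp6v0c had 118.4, 149.7 and 121.9 CPM with corticosterone and 141.2, 146.6 and 154.6 CPM in controls, with replicate 2 of the treated group inside the control range. The transcribed sequence of Atp6v0c matched the pseudogene Atp6v0c-ps2 at 99.8% of 465 aligned bases, and the table gave that copy 91.85, 106.2 and 95.6 CPM with corticosterone and 108.1, 108.5 and 112.9 CPM in controls. How reads were divided between them is uncertain. Atp6v0c had a log2 fold change of -0.18 (SE 0.091, edgeR adjusted p = 0.360) and, with the counts of the copy added, also -0.18 (SE 0.079, edgeR adjusted p = 0.306). Atp6v0e had 68.0, 78.4 and 65.3 CPM with corticosterone and 73.9, 80.3 and 82.2 CPM in controls, with overlap. Without corticosterone replicate 2 the log2 fold changes of Atp6v0c, Atp6v0d1 and Atp6v0e were -0.30, -0.19 and -0.24, and all 3 were called lower (edgeR). Atp6v0d2, the minor gene of subunit d, known from osteoclasts, had 9.59, 9.92 and 10.1 CPM with corticosterone and 9.76, 9.99 and 10.1 CPM in controls.

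**Figure D3:**
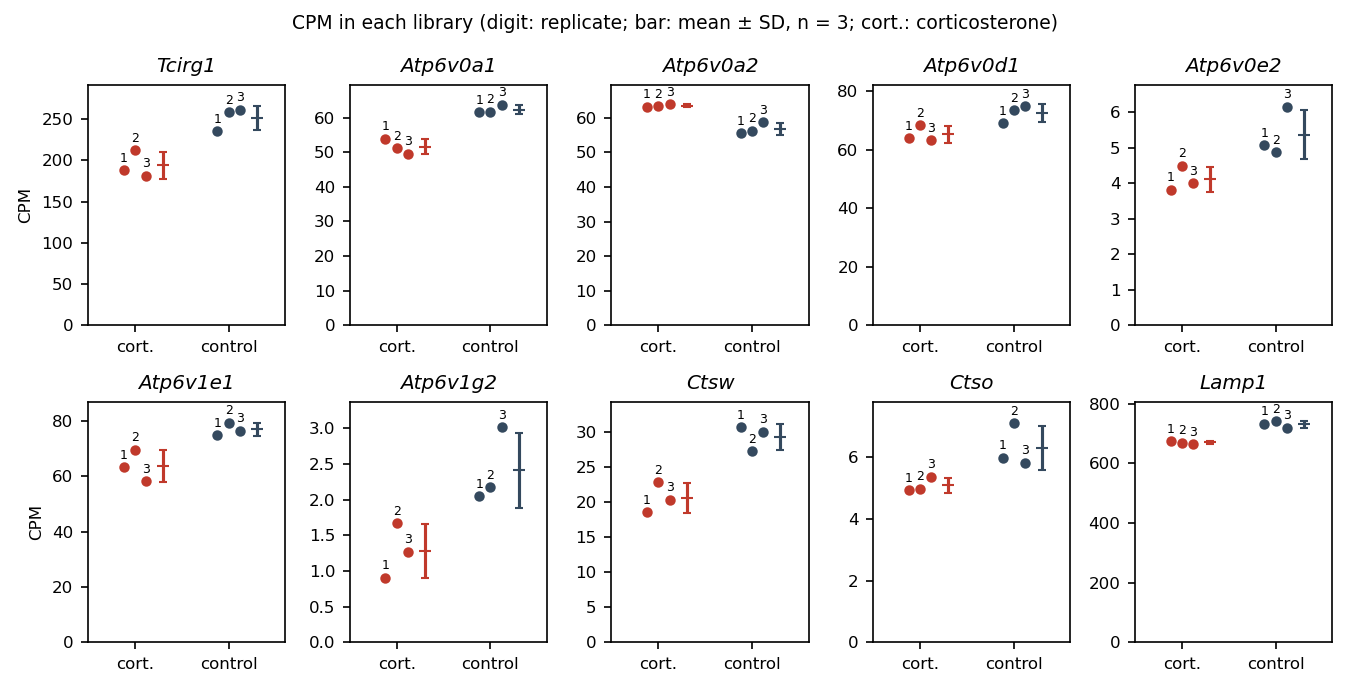
CPM in each library (points, numbered by replicate) with the mean and SD (bars, n = 3) of the 10 members whose groups do not overlap and whose unadjusted p is under 0.05, corticosterone on the left and control on the right of each panel. Atp6v0a2 is higher with corticosterone and the other 9 are lower.

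Of the 10 tested V1 genes 0 passed in either direction (edgeR), and 8 had a log2 fold change below 0. At an unadjusted p under 0.05 2 were lower and 0 higher, beside 8.80% and 8.23% of all tested genes. Atp6v1e1, whose product is part of the peripheral stalks that hold V1 still, had 63.4, 69.7 and 58.3 CPM with corticosterone and 75.0, 79.5 and 76.5 CPM in controls. Its groups did not overlap, and its log2 fold change was -0.27 (SE 0.074, edgeR with Benjamini-Hochberg adjusted p = 0.108). Atp6v1g2, the neuronal paralog of subunit G, was much scarcer, at 0.91, 1.67 and 1.27 CPM with corticosterone and 2.05, 2.18 and 3.02 CPM in controls. Its log2 fold change of -0.91 had a wide 95% interval, -1.52 to -0.30 (edgeR, Benjamini-Hochberg adjusted p = 0.129). Exons of Nfkbil1 lie opposite 144 bases of the Atp6v1g2 exons. DESeq2 called Atp6v1e1 and Atp6v1g2 lower (3.84% of all tested genes were lower by DESeq2). The 2 most abundant V1 genes did not pass. Atp6v1g1 had 114.0, 122.3 and 104.0 CPM with corticosterone and 116.5, 124.9 and 120.3 CPM in controls, and Atp6v1f had 67.0, 83.6 and 65.5 CPM with corticosterone and 74.4, 81.9 and 82.7 CPM in controls. Their log2 fold changes were -0.088 (SE 0.069) for Atp6v1g1 and -0.14 (SE 0.099) for Atp6v1f. Without corticosterone replicate 2 that of Atp6v1f was -0.27 (edgeR with Benjamini-Hochberg adjusted p = 0.0124). The catalytic subunit gene Atp6v1a had a log2 fold change of -0.052 (95% interval -0.27 to 0.16), and Atp6v1b2, its partner in the catalytic ring, one of 0.051 (-0.070 to 0.17). Atp6v1c1, Atp6v1d and Atp6v1h had log2 fold changes of 0.037, -0.13 and -0.004, each with an interval that held 0. Atp6v1c2, the lesser gene of subunit C, ranged from 0.96 to 2.21 CPM with corticosterone and from 1.38 to 2.07 CPM in controls. Of the accessory subunits, Atp6ap1, which is needed for assembly of the pump, had 179.2, 199.4 and 180.0 CPM with corticosterone and 184.1, 189.4 and 189.9 CPM in controls. Atp6ap2, the (pro)renin receptor, had 117.0, 107.4 and 112.8 CPM with corticosterone and 113.1, 116.4 and 109.7 CPM in controls. The 95% intervals of their log2 fold changes were -0.14 to 0.12 for each, and cover the spread between these libraries only.

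Ctsw, the gene of a cysteine protease known from cytotoxic lymphocytes, was the cathepsin that fell. It (ENSMUSG00000024910, chromosome 19, 5465043 to 5468501, minus strand) had 18.5, 22.9 and 20.3 CPM with corticosterone and 30.6, 27.2 and 30.02 CPM in controls. The groups did not overlap, and the treated mean was 20.6 ± 2.18 CPM beside 29.3 ± 1.83 CPM in controls (SD, n = 3 each). The fold was 0.703, a log2 fold change of -0.51 (SE 0.096, 95% interval -0.73 to -0.29, edgeR with Benjamini-Hochberg adjusted p = 0.0316). As for Tcirg1, the call was lost without control replicate 1, 2 or 3 (edgeR adjusted p of 0.139, 0.110 and 0.139) and without corticosterone replicate 1 or 3 (0.160 and 0.109). It held without corticosterone replicate 2 (edgeR adjusted p = 0.00257). Ctsw stood at 9.64 ± 0.90 FPKM with corticosterone and 13.7 ± 0.85 FPKM in controls. The 8 lymphocyte markers summed to 0.097 to 0.24 FPKM with corticosterone and 0.10 to 0.41 FPKM in controls. Whether other cell types contributed to the values of Ctsw was not tested.

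Of the other 9 cysteine cathepsins 0 passed the edgeR test, 7 lay above 0 and 2 below, and DESeq2 and limma passed 0 of them too. At an unadjusted p under 0.05 Ctsk was higher and Ctso lower. Ctsl had 1602, 1759 and 1604 CPM with corticosterone and 1565, 1546 and 1555 CPM in controls, so its groups did not overlap, with a log2 fold change of 0.090 (SE 0.052, edgeR with Benjamini-Hochberg adjusted p = 0.431). Ctsl shares 1742 bases of exon with an antisense gene. Ctsz, a carboxypeptidase, had 166.3, 188.3 and 168.9 CPM with corticosterone and 157.6, 166.2 and 175.8 CPM in controls, with overlap. Ctsb had 460.2, 485.6 and 481.3 CPM with corticosterone and 459.9, 479.1 and 473.8 CPM in controls, values that nearly coincide, although 774 bases of its exons lie opposite those of Fdft1. Ctsc, which activates serine proteases of immune cells, and the aminopeptidase Ctsh had log2 fold changes of 0.11 (95% interval -0.076 to 0.29) and -0.085 (-0.22 to 0.048). Ctsf stayed at 0.14 to 0.51 CPM with corticosterone and 0.094 to 0.29 CPM in controls. Ctso had 4.93, 4.98 and 5.37 CPM with corticosterone and 5.98, 7.11 and 5.82 CPM in controls, without overlap (log2 fold change -0.31, SE 0.12, edgeR adjusted p = 0.262).

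Ctsk and Ctss, proteases prominent in osteoclasts and in antigen-presenting cells, varied most within the treated group, relative to their means, among the cathepsins above 1 FPKM. Ctsk had 3.09, 4.00 and 6.40 CPM in corticosterone libraries 1 to 3 and 3.43, 2.88 and 2.33 CPM in control libraries 1 to 3, a log2 fold change of 0.64 (SE 0.27, edgeR with Benjamini-Hochberg adjusted p = 0.282). Ctss had 29.45, 38.1 and 49.4 CPM with corticosterone and 35.3, 36.9 and 31.8 CPM in controls, a log2 fold change of 0.17 (SE 0.17, edgeR with Benjamini-Hochberg adjusted p = 0.657). Both were highest in corticosterone replicate 3, and both groups overlapped. Without that library the log2 fold change of Ctsk was 0.30 (edgeR adjusted p = 0.651), and that of Ctss turned sign, to -0.036 (edgeR adjusted p = 0.957). Without corticosterone replicate 1 that of Ctss was 0.335 (edgeR adjusted p = 0.391). The summed level of the 11 macrophage markers, mostly Lyz2, was highest in the same library. It was 137.5, 145.3 and 192.5 FPKM with corticosterone and 151.6, 155.1 and 142.8 FPKM in controls. The single markers did not share a direction between the groups, with log2 fold changes of 0.13 for Lyz2 and -0.12 for Cd68. The pan-leukocyte gene Ptprc averaged 0.20 FPKM in both groups. The 6 osteoclast markers summed to 19.2 to 20.0 FPKM with corticosterone and 19.6 to 21.02 FPKM in controls. The part of other cell types in the values of Ctsk and Ctss was not tested.

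The aspartic and serine cathepsins did not pass. Ctsd had 600.3, 621.9 and 645.9 CPM with corticosterone and 643.8, 687.4 and 659.6 CPM in controls, with a small overlap and a log2 fold change of -0.092 (95% interval -0.21 to 0.028), and a gene read from the same strand shares 808 bases of its exons. Ctse, the endosomal aspartic protease, stayed at 0.13 to 0.58 CPM with corticosterone and 0.20 to 0.475 CPM in controls. Ctsa, a carboxypeptidase that also protects lysosomal glycosidases from breakdown, had 133.9, 156.8 and 130.5 CPM with corticosterone and 155.0, 170.0 and 164.2 CPM in controls. Only corticosterone replicate 2 reached the control range of Ctsa, and the log2 fold change was -0.22 (SE 0.078, edgeR with Benjamini-Hochberg adjusted p = 0.214). Of the Ctsa exons, 495 bases lie opposite those of Pltp and 324 opposite those of Neurl2.

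Lamp1 replicates lay close together, with 675.0, 669.3 and 664.6 CPM with corticosterone and 732.4, 741.6 and 719.0 CPM in controls. The groups did not overlap and differed by -0.13 on the log2 scale (SE 0.045, 95% interval -0.23 to -0.024), short of the threshold (edgeR, Benjamini-Hochberg adjusted p = 0.2025). Exons of Grtp1 lie opposite 249 bases of the Lamp1 exons. Lamp2, which also serves chaperone-mediated autophagy, had 189.5, 164.5 and 206.9 CPM with corticosterone and 187.2, 177.5 and 174.7 CPM in controls, a log2 fold change of 0.056 (95% interval -0.13 to 0.25). Lamp3 stayed at 0.25 to 0.41 CPM with corticosterone and 0.23 to 0.46 CPM in controls. Its transcribed sequence matched that of Ppid at 96.0% of 556 aligned bases, with mean counts of 14420.5 for Ppid and 22.0 for Lamp3. Whether the few Lamp3 reads came from such copies was not tested.

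Summed over genes, V0 stood at 184.6, 206.3 and 179.6 FPKM with corticosterone and 200.6, 218.5 and 222.4 FPKM in controls. For V1 the sums were 241.2, 252.4 and 230.9 FPKM with corticosterone and 247.4, 264.7 and 256.3 FPKM in controls. In both sectors corticosterone replicate 2 lay within the control range and the other treated libraries lay below it. Cathepsins summed to 702.9, 746.3 and 743.0 FPKM with corticosterone and 718.0, 741.3 and 729.6 FPKM in controls, and LAMP genes to 243.4, 233.3 and 242.3 FPKM with corticosterone and 260.2, 262.0 and 252.5 FPKM in controls. The LAMP sums, which are nearly all Lamp1, did not overlap.

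**Figure D4:**
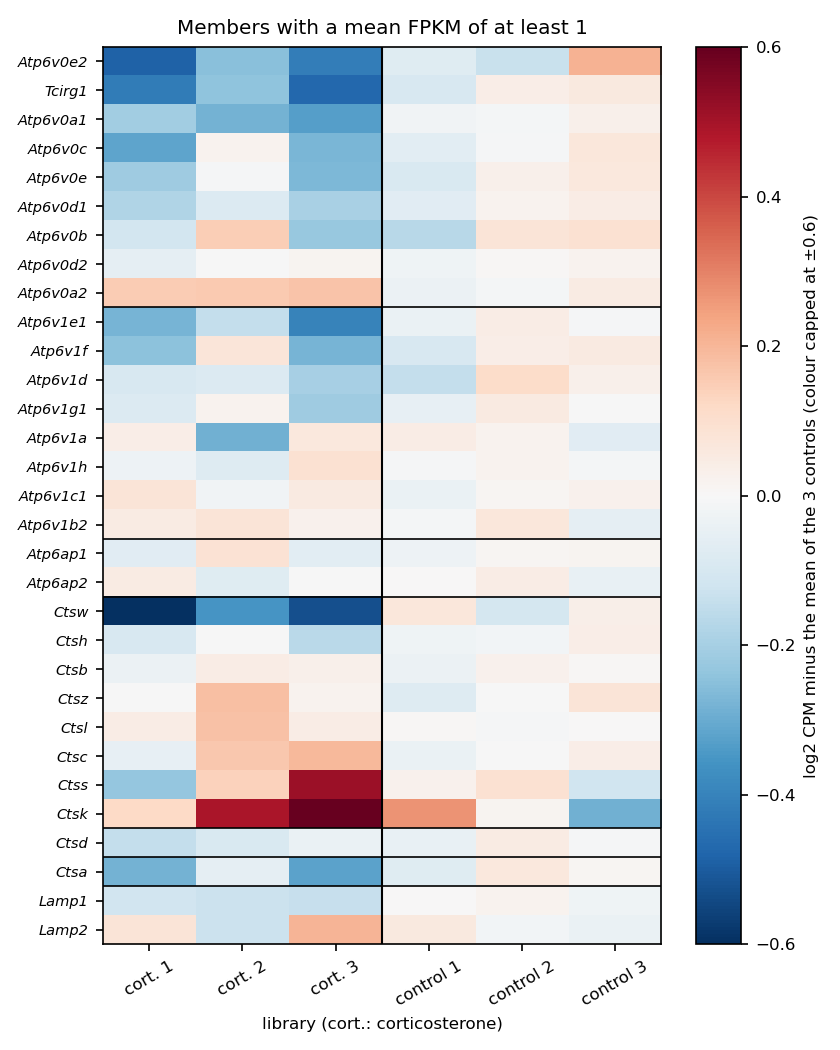
Log2 CPM of the 31 members with a mean of at least 1 FPKM in each library, minus the mean of the 3 controls, with colours capped at 0.6 in either direction. Rows are grouped from the top as V0, V1, accessory subunits, cysteine, aspartic and serine cathepsins and LAMP genes, and corticosterone replicate 2 is closer to the controls than the other treated libraries for V0 genes such as Tcirg1 and Atp6v0c.

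Corticosterone replicate 2 differed from the other treated libraries in more than these genes. The 83 ribosomal protein genes, a gauge of library composition, had medians of -0.18, 0.12 and -0.25 (log2 CPM minus the control mean) in corticosterone libraries 1 to 3. The 6 neutrophil markers, of which S100a8 and S100a9 reached 1 FPKM, summed to 4.005, 11.3 and 5.42 FPKM with corticosterone and 4.05, 5.105 and 3.98 FPKM in controls, highest in the same library. The 7 fibroblast markers, of which 3 reached 1 FPKM, summed to 13.05 to 13.97 FPKM with corticosterone and 12.55 to 13.96 FPKM in controls. For the 18 shorter tested members (1063 to 3356 exon bases) the medians were -0.13, 0.009 and -0.099, and for the 19 longer ones (3384 to 9746 exon bases) -0.048, -0.056 and 0.028. Without this library 11 of 38 tested members were called lower and 0 higher by edgeR, while 10.0% of all tested genes were called lower and 10.5% higher. The 11 were Tcirg1, Atp6v0a1, Atp6v0c, Atp6v0d1, Atp6v0e, Atp6v1e1, Atp6v1f, Atp6v1g2, Ctsa, Ctsw and Lamp1. At an unadjusted p under 0.05 3 members were higher in that fit, against 16.5% of all tested genes. Without any other library edgeR called 0 members in either direction. The part of library composition or of other cells in these differences was not tested.

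Other lysosomal genes, on 6 lists chosen with earlier results of these data known, were also counted. Of 129 tested genes 2 rose and 1 fell (edgeR), beside 1.35% and 1.46% of all tested genes, shares near those of the lists, with a median log2 fold change of -0.041. Among 12 assembly factors and interactors of the V-ATPase Dmxl1 rose. It encodes a rabconnectin of the complex that joins V1 to V0, and had 63.9, 48.6 and 74.1 CPM with corticosterone and 36.2, 31.3 and 32.0 CPM in controls (log2 fold change 0.91, SE 0.14, edgeR with Benjamini-Hochberg adjusted p = 0.0160). The groups did not overlap, and the call was lost without control replicate 1, 2 or 3 (edgeR adjusted p of 0.0593, 0.109 and 0.0856) and without corticosterone replicate 1 (0.0928). Among 25 genes of the TFEB family and its nutrient-sensing control Sesn2 rose. This stress-induced leucine sensor upstream of mTORC1 had 24.1, 27.0 and 24.5 CPM with corticosterone and 15.9, 18.5 and 17.2 CPM in controls (log2 fold change 0.55, SE 0.087, edgeR with Benjamini-Hochberg adjusted p = 0.0162). Its edgeR adjusted p was 0.0785, 0.0752 and 0.0844 without control replicate 1, 2 or 3, and 0.0788 and 0.05015 without corticosterone replicate 1 or 3.

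Of 17 cathepsin inhibitors on the list 16 were in the deposited table, and 8 had enough counts for the test. Among these 8 Slpi fell, 7 did not pass, and all 8 were below 0. Slpi, the secretory leukocyte protease inhibitor, which blocks the serine protease encoded by Ctsg, had 7.19, 8.69 and 8.35 CPM with corticosterone and 20.8, 21.2 and 20.7 CPM in controls. The groups were far apart, with the lowest adjusted p on the 6 lists, a log2 fold change of -1.37 (SE 0.095, edgeR with Benjamini-Hochberg adjusted p = 0.00078), and it passed without each library in turn. Of 38 other lysosomal hydrolases 0 passed in either direction (edgeR). Their median was -0.080, and at an unadjusted p under 0.05 9 were lower and 2 higher, beside 8.80% and 8.23% of all tested genes. The nearest to the threshold was Gm2a, the GM2 ganglioside activator, with 37.8, 38.03 and 39.1 CPM with corticosterone and 45.4, 46.95 and 46.6 CPM in controls (log2 fold change -0.27, SE 0.059, edgeR with Benjamini-Hochberg adjusted p = 0.0504). DESeq2 (adjusted p = 0.00076) and limma on log2(FPKM + 1) (adjusted p = 0.0399) called Gm2a lower, beside 3.84% and 2.43% of all genes each tested. Of 27 other lysosomal membrane proteins and transporters 0 passed by edgeR (median -0.050, 6 lower and 1 higher at an unadjusted p under 0.05, with the same shares over all genes). Of 19 genes for mannose 6-phosphate tagging and sorting 0 passed (median -0.019, 1 lower and 0 higher at that unadjusted p). Without corticosterone replicate 2 the 6 lists had 11 genes higher and 19 lower, beside 10.5% and 10.0% of all tested genes in that fit.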

How the data were processed

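Total RNA of 6 libraries was sequenced, and groups and replicate numbers were read from the treatment field and titles of the labels. Per the file headers, the deposited table gives, for each library, a count and an FPKM value per gene. The deposited counts are whole numbers, and the FPKM values are those of the authors. At low counts the FPKM values were not the deposited counts scaled by a fixed length and the library total. Atp6v0a4 had 4 counts in both control replicates 1 and 2 (totals 63.4 and 65.4 M) but 0.0096 and 0.0084 FPKM. Whether the counts were rounded from fractions was not tested. No source used here gives the aligner, counter, strandedness or read layout. The submitters' processing notes name GRCh38, but the identifiers are mouse ones, and 90.4% of the 28086 found in GENCODE M21 (GRCm38) have identical coordinates there, as have 35 of the 41 members. The members whose coordinates differ are Tcirg1, Ctsw, Ctsa, Atp6v0a4, Atp6v1c2 and Atp6v1e2. Coordinates are those of the table.

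Low counts were removed by filterByExpr at its minimum of 10 (15 in total), and the rest were normalised by TMM (trimmed mean of M values) and fitted with edgeR 4.0.16 (R 4.3.3) by its quasi-likelihood test with group as the only term. The whole table of 17283 genes was fitted, with Benjamini-Hochberg adjustment over all of it. Rose and fell mean an adjusted p under 0.05. The common biological coefficient of variation was 0.135. Library totals were 62.2 to 66.2 M counts, so 1 CPM stands for about 65 counts, and intervals cover 95%. Alternatives were limma 3.58.1 on log2(FPKM + 1) for genes of at least 1 FPKM in at least 3 libraries, a pseudocount of 0.1, limma without the filter, edgeR without the count filter, DESeq2 1.42.0, DESeq2 size factors in edgeR, a replicate block and each library left out in turn. Adding the counts of Atp6v0c-ps2 to Atp6v0c was chosen after seeing the data. The edgeR and limma steps were tested on simulated data.

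Values are given for every member that passed, every member whose groups do not overlap and whose unadjusted p is under 0.05, the 2 most abundant members of each role, paralogous subunits and members with too few counts. Ctsk, Ctss, Atp6v1a and some others were named after their values were seen, to account for the rest. On the other lists, up to 4 genes with an adjusted p under 0.05 are named. Gm2a and the list genes called by DESeq2 alone were added after their values were seen. Members and lists were chosen with earlier results of these data known. CPM are counts scaled to 1 M per TMM-normalised library. Promoter windows and sequences come from RefSeq tables (GRCm38.p6), matched by symbol. Exon overlaps and copies (at least 95% identity over at least 200 bases) were sought in GENCODE M21.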

Additional observations from a re-analysis of the deposited data

How the results depend on the processing

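The 2 members called lower became 0 with no low count filter, with limma and no filter and with the replicate block, and 5 with DESeq2 (Atp6v0a1, Atp6v1e1 and Atp6v1g2 besides Tcirg1 and Ctsw). Leaving out each library gave 0 to 11 members lower and 0 members higher. No alternative called a member higher. Among all genes, 234 were higher and 253 lower, with 112 and 99 under no low count filter, 629 and 664 with DESeq2, 135 and 125 with limma and no filter and 130 and 107 with the replicate block. Leaving out each library gave 60 to 1884 higher and 28 to 1786 lower, both highest without corticosterone replicate 2. The 2 genes of the other lysosomal lists called higher became 0 with no low count filter, 4 with DESeq2 and 1 with limma and no filter (0 to 11 on leaving out each library). The 1 called lower became 7 with DESeq2 and 2 with limma under either pseudocount (1 to 19 on leaving out each library). Those of DESeq2 were Gm2a, Fuca1, Tpcn1, Laptm4a, Npc2 and Tmem9 besides Slpi, and those of limma Gm2a besides Slpi. Filters that keep more genes raise the number of tests, but the unadjusted p changed as well. With no low count filter the unadjusted edgeR p of Tcirg1 went from 0.00083 to 0.00197, and that of Ctsw from 0.00065 to 0.00129. Causes of these shifts were not tested.

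Same-numbered libraries showed little shared deviation from their group means (Pearson r of 0.011, 0.038 and -0.088 across genes). With 3 libraries in each group these values cannot settle whether the replicate numbers pair the samples. With the replicate block the edgeR adjusted p of Tcirg1 was 0.0665 and that of Ctsw 0.0969. The log2 fold change of Tcirg1 ranged from -0.45 to -0.33 and that of Ctsw from -0.59 to -0.44 over all alternatives. Of the 37 tested members 25 kept their sign under every alternative, and none of the other 12 passed the test in any. Atp6v0a4, Atp6v1b1, Atp6v1e2 and Ctsg, with at most 20 counts in any library, were tested without the low count filters and, for Atp6v0a4 and Ctsg, on leaving out some libraries, and passed in none of these fits.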

Other observations

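The members that fell, Tcirg1 and Ctsw, both lie on chromosome 19, 1.56 Mb apart in the deposited coordinates. Ctsf lies between them, with a log2 fold change of 0.46 and a 95% interval of -0.98 to 1.89 at under 1 CPM in every library. Their positions were compared after the values were seen.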
